A study of Mus musculus with 6 samples.

Results

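Potassium channel genes were examined for binding of LncMyoD, a muscle long non-coding RNA, to their DNA in mouse myotubes. The members were the protein-coding genes on chromosomes 1 to 19 of the mm10 RefSeq table whose symbol starts with Kcn, except Kcnc1. They numbered 91 of 20665 protein-coding genes on these chromosomes, and the other 20574 genes served as the background. In the experiment, primary C57BL/6 myoblasts grown in 2% horse serum for 2 days formed differentiated myotubes. LncMyoD was captured from their sonicated nuclei with biotin-labelled DNA probes, a method called ChIRP, and the DNA that came along was sequenced. The 6 samples were 2 captures with the odd probes, 2 with the even probes and 2 inputs, and 1 peak list per replicate was analysed here. All samples share the strain, the cell type and the culture, so the data hold no second condition. The lists hold DNA positions only, and the myotube identity of the cells and the expression of the channels could not be checked in them.

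Potassium channels let potassium ions cross the cell membrane, and they set the resting voltage and the length of the action potential. In skeletal muscle, inward rectifiers hold the fibre at rest, voltage-gated channels end the action potential, and channels closed by ATP or opened by calcium couple excitability to metabolism and to calcium release. In human myoblasts, hyperpolarisation by Kcnh1-type and Kcnj2-type channels comes before fusion. The genes were sorted by symbol into 38 voltage-gated pore subunits (such as Kcna, Kcnd, Kcnh and Kcnq), 15 inward rectifiers (Kcnj), 14 tandem-pore leak channels (Kcnk), 8 calcium- or sodium-activated channels (Kcnma, Kcnn, Kcnt and Kcnu) and 16 auxiliary or other genes (such as Kcnab, Kcne, Kcnip and Kcnmb).

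The lists held 157214 peaks in replicate 1 and 179630 in replicate 2, and read depth is unknown. A shared region is a union of overlapping peaks (by at least 1 bp) with at least 1 peak of each list, and a gene counts as having a region when one lies in its span or within 5 kb of it. Fold enrichment is the authors' value at the peak summit over the caller's background, and it is used within a list. It has no SD, because each list pools the samples of a replicate. Each region was scored by the percentile of its best peak's −log10 q within a list, averaged over the lists, and the resulting order among all 97493 regions is called the place. Genes were given as spans without exons, so exons, introns and UTRs were not told apart.

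Most potassium channel genes had a shared LncMyoD region, and so did most genes of their length. A region was found at 75 of the 91 members (82.4%, 95% exact binomial interval 73.0 to 89.6%), against 72.1% of other protein-coding genes. The members are long, with a median of 32876 bp against 17414 bp for other genes. Of other genes, 33.8% had a region in the shortest decile of gene length and 99.4% in the longest. When the other genes were weighted to the members' lengths, by deciles of gene length, their share was 81.4%, which lies inside the members' interval. In replicate 1 alone 81 members had a peak (89.0%), against 80.5% of other genes and 88.2% of them at the members' lengths. In replicate 2 alone 87 members did (95.6%), against 84.2% and 91.1%. No enrichment test was run, because the members were chosen with results of these data known.

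The 75 genes held 402 different regions, and 365 of these (90.8%) lay in a member's own span. The same share for other genes was not counted, and the span of a long gene fills more of its window. The median width of the 402 regions was 756 bp, against 755 bp for the 91707 shared regions on these chromosomes. In replicate 1 their median fold was 10.3 and in replicate 2 it was 11.1, against 10.8 and 12.05 for all regions. Of the peaks near members, 67.5% in replicate 1 and 54.6% in replicate 2 overlapped a peak of the other list, against 67.9% and 57.7% of all peaks. Regions near channel genes were thus about as wide, as strong and as often found in both lists as regions elsewhere. A region of the strongest 1% lay at 5 members (5.49%), against 2.61% of other genes and 4.04% of them at the members' lengths. A region of the strongest 10% lay at 23 members (25.3%), against 19.6% and 27.5%. The windows of Kcnip1 and Kcnmb1 overlap and share 2 regions, and no other region belongs to more than 1 member.

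**Figure D1:**
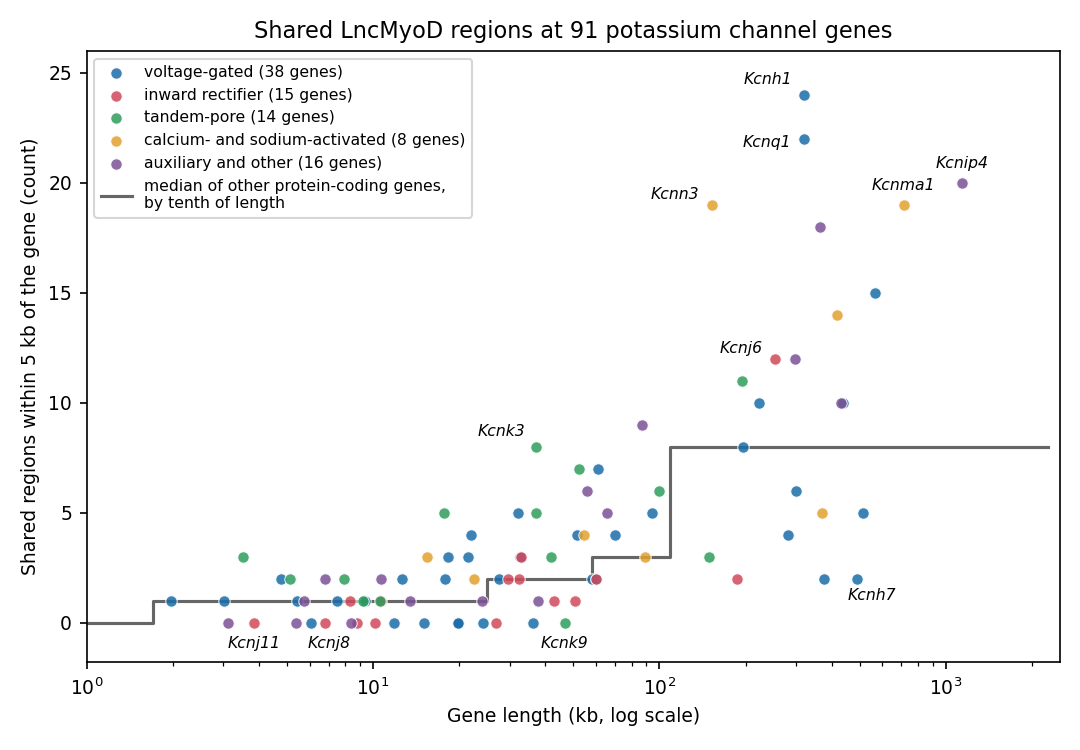
Each point is 1 of the 91 potassium channel genes, with its length in kb on a log axis and the number of shared regions within 5 kb of it, coloured by family. The grey step is the median of other protein-coding genes in each decile of gene length. Kcnh1 reached 24 regions, while Kcnj8, Kcnj11 and Kcnk9 had 0.

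Regions were spread unevenly over the longest members. The 14 members with at least 10 regions were Kcnh1, Kcnq1, Kcnip4, Kcnma1, Kcnn3, Kcnip1, Kcnq5, Kcnn2, Kcnj6, Kcnmb2, Kcnk2, Kcnab1, Kcnb2 and Kcnd3. They held 216 of the 404 pairs of a region and a member. All 14 lie in the longest decile of genes, where the median was 10 regions in members and 8 in other genes. The share of other genes with at least 10 regions was not counted. In the longest decile of genes (from 109104 bp), all 23 members had a region, against 99.4% of other genes. Their median density was 2.61 regions per 100 kb of gene and flank, against 3.48 in other genes, and 9 of the 23 lay above that median. Shorter members went the other way in most deciles. The members' median density was higher than that of other genes in the second, the third and each decile from the fifth to the ninth. In the fourth it was lower (4.86 against 5.04), and the first decile held no member. Over all deciles, 50 of the 91 members (54.9%) were denser than the median other gene of their own decile. Of the 23 members in the longest decile, 3 lay above the 90th percentile of density for their length and 6 below the 10th. Of other genes in that decile 9.98% and 9.78% did. The 6 sparse genes were Kcnh7, Kcnh8, Kcnd2, Kcnj3, Kcnt2 and Kcnh5, and Kcnh7 had 2 regions in 490878 bp. Kcnn3, Kcnh1 and Kcnq1 were the dense ones, with 11.7, 7.25 and 6.66 regions per 100 kb.

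Promoters came from RefSeq (GRCm38.p6, the assembly behind mm10), as windows from 250 bases before to 50 after a transcript start, and 67 of the 91 members had an entry. A shared region overlapped a promoter of 8 members (11.9%), against 11.1% of other genes with an entry. By single lists, a peak of replicate 1 lay at a promoter of 8 members (11.9%) against 11.5% of other genes, and a peak of replicate 2 at 16 members (23.9%) against 14.1%. The members with a shared region there were Kcna3, Kcnc2, Kcnc4, Kcnd2, Kcnip1, Kcnj5, Kcnma1 and Kcnt2. The promoters of Kcnc4 and Kcnma1, from the muscle list described next, and those of Kcnt2 and Kcna3, picked for their folds after these were seen, are shown with every E-box of the form CANNTG in capitals. The E-box is the sequence class that MyoD-type factors bind.
Kcnc4: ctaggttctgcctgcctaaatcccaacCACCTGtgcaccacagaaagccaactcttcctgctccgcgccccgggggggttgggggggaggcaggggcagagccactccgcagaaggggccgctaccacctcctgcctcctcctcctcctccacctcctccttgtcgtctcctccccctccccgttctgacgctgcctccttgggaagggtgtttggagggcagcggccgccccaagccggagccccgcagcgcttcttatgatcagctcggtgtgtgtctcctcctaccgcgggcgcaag
Kcnma1: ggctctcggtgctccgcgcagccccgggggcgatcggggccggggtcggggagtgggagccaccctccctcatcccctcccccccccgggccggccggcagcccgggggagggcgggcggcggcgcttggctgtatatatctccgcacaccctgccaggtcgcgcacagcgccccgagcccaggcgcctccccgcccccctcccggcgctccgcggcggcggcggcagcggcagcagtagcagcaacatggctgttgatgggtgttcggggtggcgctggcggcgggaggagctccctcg
Kcnt2: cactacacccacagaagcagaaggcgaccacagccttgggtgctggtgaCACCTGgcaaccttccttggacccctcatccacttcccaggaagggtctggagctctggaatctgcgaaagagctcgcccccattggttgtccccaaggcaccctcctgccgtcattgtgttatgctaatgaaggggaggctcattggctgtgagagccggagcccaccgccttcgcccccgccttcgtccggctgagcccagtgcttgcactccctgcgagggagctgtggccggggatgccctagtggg
Kcna3: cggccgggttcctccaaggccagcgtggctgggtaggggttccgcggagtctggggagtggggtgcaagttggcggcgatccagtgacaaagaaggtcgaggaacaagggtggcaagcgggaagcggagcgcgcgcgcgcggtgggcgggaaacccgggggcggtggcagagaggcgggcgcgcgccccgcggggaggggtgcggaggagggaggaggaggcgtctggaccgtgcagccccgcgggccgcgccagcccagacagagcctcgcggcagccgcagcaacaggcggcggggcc
The Kcnc4 window (chr3:107458849-107459148, minus strand) lay under a region with folds of 5.88 in replicate 1 and 14.2 in replicate 2. The Kcnma1 window (chr14:24004156-24004455, minus strand) lay partly under a region with folds of 5.51 and 4.63. The Kcnt2 window (chr1:140245468-140245767, plus strand) lay under the strongest of the promoter regions, with 39.3-fold and 50.04-fold, and the Kcna3 window (chr3:107035912-107036211, plus strand) lay mostly under one of 21.3-fold and 28.7-fold. Kcnt2 encodes a sodium-activated channel and Kcna3 a voltage-gated channel best known from lymphocytes. The motif stood in Kcnc4 and Kcnt2 once each and in neither of the other windows printed. It was in 72.8% of the 92 promoter windows of members and 68.7% of 19993 windows of other genes, and the form CAGCTG, which it includes, in 25.0% and 15.6%. A shared region overlapped 8 windows of members and 2035 of other genes. Among these, CANNTG was in 62.5% and 67.0%, and CAGCTG in 12.5% and 16.4%. Both motifs read the same on either strand, and a match describes letters, not binding.

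Channels with a known place in skeletal muscle were listed from general knowledge, among them Kcnj2, Kcnj11, Kcnj12, Kcnj8, Kcna5, Kcna7, Kcnc4, Kcne3, Kcnh1, Kcnma1, Kcnn3 and Kcnq5. Of the 14 on the list, 11 had a shared region (78.6%, exact interval 49.2 to 95.3%), against 78.6% of other genes at their lengths. Of the inward rectifiers on the list, Kcnj2 had a region of low place, Kcnj12 one beyond the gene, and Kcnj11 and Kcnj8 none. Kcnj2, which encodes the inward rectifier that stabilises the resting potential and is mutated in human Andersen-Tawil syndrome, had 1 region (chromosome 11, 111074303 to 111075416). It lay inside the gene, with folds of 7.71 in replicate 1 and 10.8 in replicate 2, and took place 58501. Both folds were below the medians of shared regions in their lists. Kcnj12, the gene of a closely related inward rectifier, had a stronger region (26.5-fold and 48.2-fold, place 8502). That region lay 4934 bp beyond the gene, the farthest out of all nearest regions that still counted. It no longer counted with a window of 1 kb or a reciprocal overlap of 50%.

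Kcnj11 encodes the pore of the ATP-sensitive channel of muscle and pancreatic beta cells, and no shared region lay within 5 kb of it (chromosome 7, 46097123 to 46100952). Its only peak was a 3.46-fold peak of replicate 1, 4218 bp away, and replicate 2 had none. The nearest shared region was 5543 bp away (46106495 to 46107419, 13.2-fold and 12.05-fold) and lay inside Abcc8, the adjoining gene of a sulfonylurea receptor that surrounds this pore. A window of 10 kb would count it for Kcnj11. Kcnj8, the pore gene of the ATP-sensitive channel of vascular muscle, had no peak of either list, and its nearest shared region was 11824 bp away. Abcc8 had 5 shared regions, the best (32.3-fold and 37.3-fold) beside the gene. Abcc9, the receptor gene next to Kcnj8 and the form used in skeletal muscle, had 4, the best (8.81-fold and 21.6-fold) inside it. In both gene pairs the regions thus lay at the receptor gene and not at the pore gene, which is the shorter of the pair (3830 and 6778 bp, against 75517 and 114905 bp).

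The calcium-activated channels of muscle carried many regions. Kcnma1, the gene of the large-conductance calcium-activated channel, had 19 regions in 712823 bp and the strongest region of any member (chromosome 14, 23527309 to 23529034), at 87.8-fold in replicate 1 and 72.3-fold in replicate 2 and place 183. Further regions of Kcnma1 had folds of 37.6 and 51.7, 34.5 and 46.6, and 27.9 and 48.8, while the region at its start had 5.51 and 4.63. Its density of 2.63 per 100 kb was at the 31.0th percentile for its length, below the median of other genes. Kcnn3, the gene of a small-conductance channel present in immature and denervated muscle, also had 19 regions, of which 18 lay in its 152331 bp and 1 beside it. Its density of 11.7 per 100 kb was at the 99.6th percentile for its length. The best Kcnn3 region (chromosome 3, 89637878 to 89639670) had folds of 58.8 and 51.3, and another starting just inside the gene (89520277 to 89522622) had 20.6 and 28.1.

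**Figure D2:**
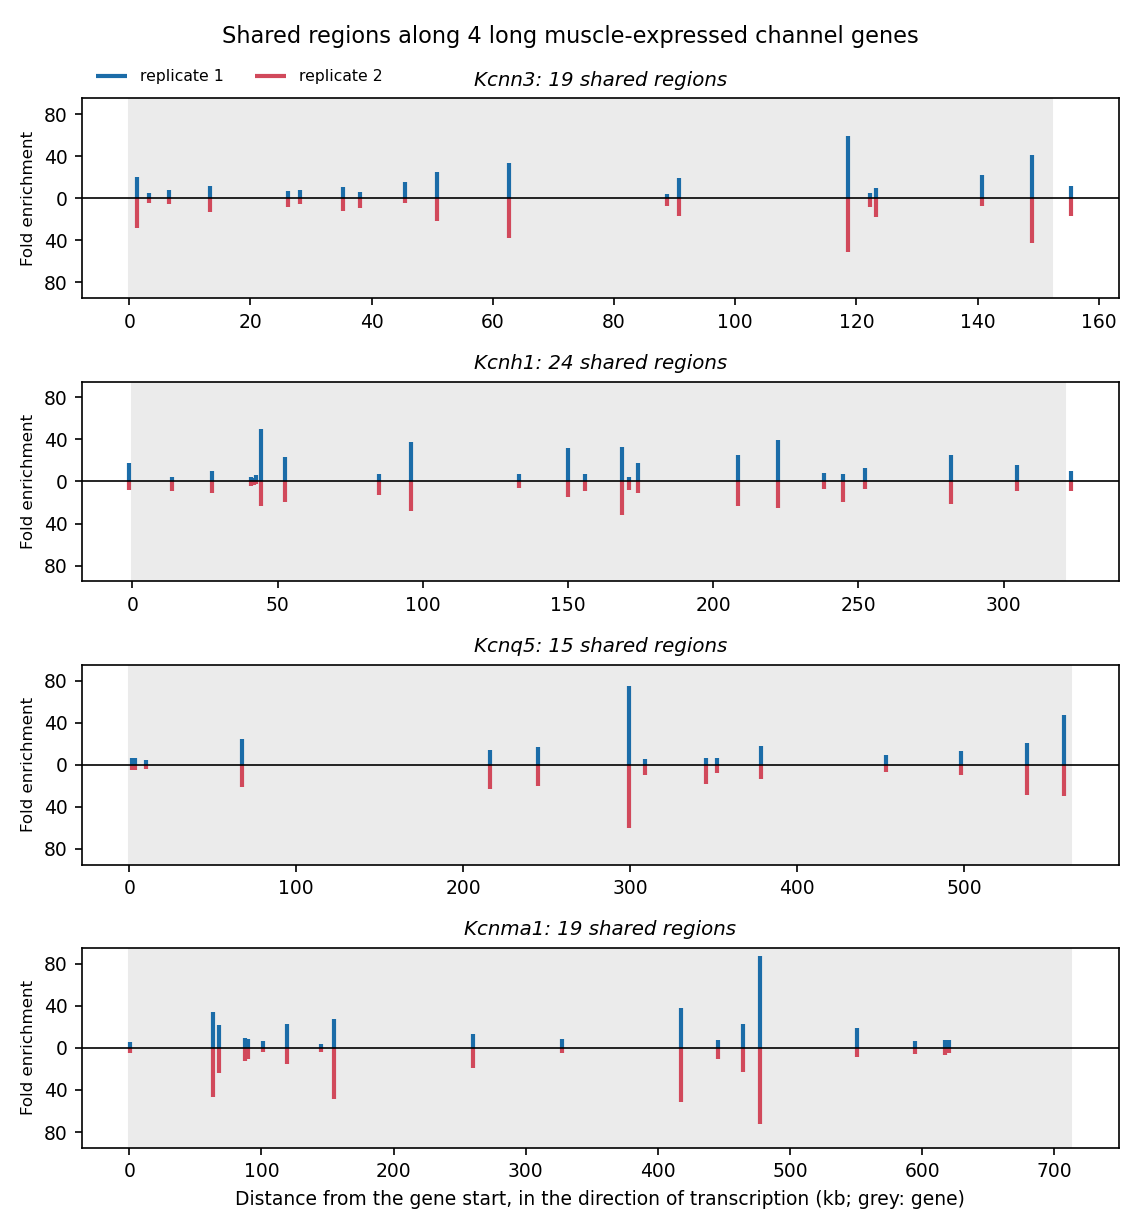
Shared regions along Kcnn3, Kcnh1, Kcnq5 and Kcnma1, by distance in kb from the gene start in the direction of transcription, with the gene in grey. Lines going up give the fold enrichment in the list of replicate 1 and lines going down that in replicate 2. Kcnn3, the shortest of these genes, has 19 regions, 18 in the gene and 1 beside it. The tallest line of Kcnma1 (87.8-fold and 72.3-fold) stands far inside the gene.

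Among the voltage-gated members of the muscle list, Kcnh1 led by number. It encodes an ether-a-go-go channel, and its 24 regions, 22 of them in its 321016 bp and 2 beside it, gave 7.25 per 100 kb of gene and flank, the 93.8th percentile for its length. Its best region (chromosome 1, 192232554 to 192234142) had 50.3-fold and 23.2-fold enrichment, and a region with folds of 17.6 and 8.34 had its centre 1040 bp before the gene start. Kcnq5, the gene of an M-type channel of muscle and nerve, had 15 regions, of which one in the middle of the gene reached 74.9-fold and 59.8-fold (place 679). Kcnc4 encodes a channel that assembles with the Kcne3 protein in muscle fibres. It had 4 regions in 21990 bp, the 92.2nd percentile for its length, at most 6.24-fold in replicate 1 and 14.2-fold in replicate 2. Its count fell to 2 at a fold of at least 5 and to 1 with a reciprocal overlap of 50%, so its rank rests on weak peaks that overlap in part. Kcne3 itself had no shared region and a single 4.32-fold peak in replicate 2, 179 bp from the gene.

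The short genes Kcna5 and Kcna7 had 1 region each. Kcna5 had folds of 27.9 and 30.3 over the end of the gene away from its start (chromosome 6, 126532225 to 126533556). Kcna7, which is expressed in muscle and heart, had 8.95 and 9.31 inside the gene (chromosome 7, 45407298 to 45407677). Several Kcna genes stand side by side in clusters. In the cluster on chromosome 6, Kcna1 and Kcna6 had 1 and 3 regions beside the single one of Kcna5. In the cluster on chromosome 3, Kcna3 had 1 region and Kcna10 had 2, which lay beside the gene. Kcna2 between them had none and carried unpartnered peaks of 16.5-fold in replicate 1 and of 4.32-fold and 4.83-fold in replicate 2. The muscle-listed genes described here with a region ran, by the place of the best one, from Kcnma1 through Kcnq5, Kcnn3, Kcnh1, Kcnj12, Kcna5, Kcna7 and Kcnj2 to Kcnc4. With 1 value per list, neighbours in this order could not be told apart by a replicate error.

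**Figure D3:**
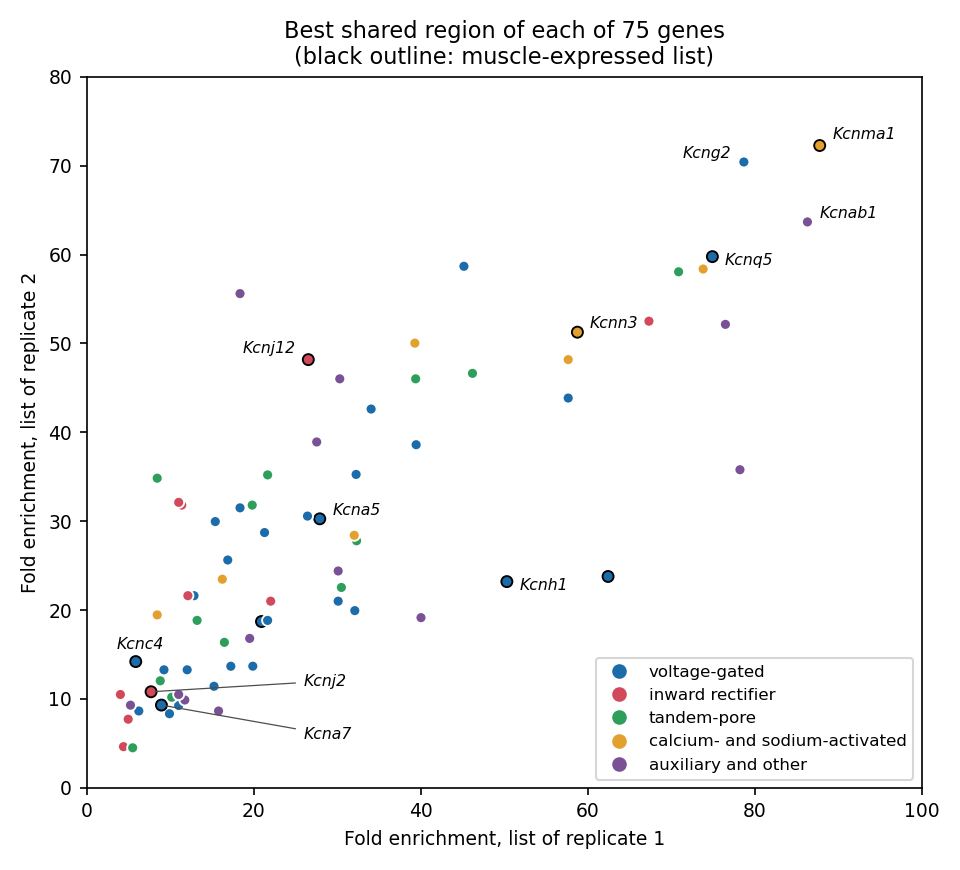
Each point is the best shared region of 1 of the 75 genes that had one, with its fold enrichment in replicate 1 across and in replicate 2 upwards, coloured by family. Genes of the muscle list have a black outline. Kcnma1 stands at the upper right (87.8-fold and 72.3-fold), and Kcnj2, Kcna7 and Kcnc4 stand at the lower left.

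The 10 members with the highest places came from every family. After Kcnma1 came Kcng2, the gene of a silent subunit that modifies other voltage-gated channels, with 78.7-fold and 70.4-fold (place 210). Kcnab1, the gene of a cytoplasmic beta subunit, had 86.3-fold and 63.7-fold (chromosome 3, 65367400 to 65370136). It was followed by Kcnq5 and by Kcnip4, the gene of a calcium-binding partner of Kcnd channels and the longest member (1135620 bp), with 76.5-fold and 52.1-fold. Kcnu1, which encodes a sperm channel, had 73.8-fold and 58.4-fold. The leak channel gene Kcnk1 had 70.9-fold and 58.1-fold (chromosome 8, 125999709 to 126001970). Kcnj6, the gene of a G-protein-gated inward rectifier of neurons, had 67.3-fold and 52.5-fold. Kcnn3 and its relative Kcnn2 (57.7-fold and 48.2-fold) completed this group. Only Kcnma1, Kcnq5 and Kcnn3 of these 10 are on the muscle list.

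The families differed in count and density, as described here without a test. All 8 calcium- and sodium-activated genes had a shared region (exact interval 63.1 to 100%), against 90.7% of other genes at their lengths, and 4 of the 8 were denser than the median other gene of their length. Besides Kcnma1, Kcnn3, Kcnn2, Kcnu1 and Kcnt2, these were Kcnt1 (4 regions), Kcnn4 (3) and Kcnn1 (2). Kcnn4, the gene of the intermediate-conductance channel of blood cells, reached 32.0-fold and 28.4-fold.

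Of the 14 tandem-pore genes, 13 had a region (92.9%, interval 66.1 to 99.8%), against 79.8% of other genes at their lengths. Their median density of 8.22 per 100 kb was the highest of the families, and 11 of the 14 were denser than the median other gene of their length. The acid-sensitive leak channel gene Kcnk3 had 8 regions in 37101 bp (17.0 per 100 kb, the 99.7th percentile). Kcnk18 (17723 bp) had 5 regions, 3 in the gene and 2 beside it, and the best, at 46.2-fold and 46.6-fold, was one of those beside it. Kcnk7 (3514 bp) had 1 region in the gene, at 6.98-fold and 6.01-fold, and 2 beside it that lay over Map3k11 and Ehbp1l1. Kcnk12 had 7 and Kcnk2, the gene of a mechanically gated leak channel, had 11. Kcnk13, Kcnk1, Kcnk5, Kcnk10, Kcnk15, Kcnk16, Kcnk4 and Kcnk6 had 1 to 6. Kcnk9, which is close to Kcnk3 in function, had none in 46742 bp and 2 unpartnered peaks of replicate 2 (5.56-fold and 13.6-fold).

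Inward rectifiers had the lowest share, with 10 of 15 genes (66.7%, interval 38.4 to 88.2%), against 78.0% of other genes at their lengths. Their median density was 1.90 per 100 kb, and 5 of the 15 were denser than the median other gene of their length. Kcnj6 alone held 12 of the 27 regions of this family. Kcnj10, the gene of the main glial inward rectifier, had 3 (best 12.1-fold and 21.6-fold). Kcnj16, Kcnj3, Kcnj4 and Kcnj5 had 2 each, and Kcnj2, Kcnj12, Kcnj14 and Kcnj15 had 1. Kcnj3 and Kcnj5 encode subunits of the acetylcholine-activated channel of the heart, and Kcnj3 had 2 regions in 186348 bp, with 11.02-fold and 32.1-fold at the better one. Besides Kcnj11 and Kcnj8, the members without a region were the kidney channel gene Kcnj1, Kcnj9 and Kcnj13. The interval of this family is wide and includes the share of other genes, and whether the family differs was not tested.

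**Figure D4:**
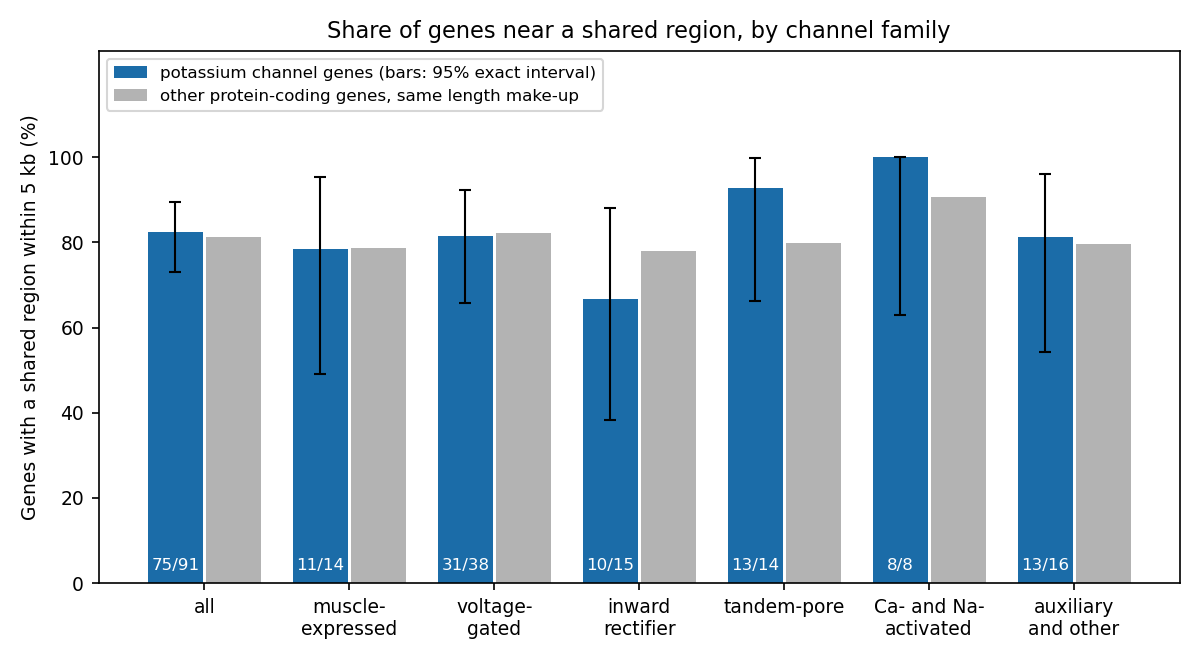
Blue bars give the percentage of genes with a shared region within 5 kb for all 91 members, the muscle list and the 5 families, with 95% exact binomial intervals and the counts at their feet. Grey bars give the share of other protein-coding genes weighted to the same gene lengths. Every interval contains its grey bar.

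Of the 38 voltage-gated genes, 31 had a region (81.6%, interval 65.7 to 92.3%), against 82.1% of other genes at their lengths. Kcnq1, the gene of a cardiac and epithelial channel in an imprinted locus, had 22 regions, the best at 45.2-fold and 58.7-fold (chromosome 7, 143358285 to 143360268). Kcnd3, Kcnb2 and Kcnc2 had 10, 10 and 8 regions, and Kcns3 had 7 in 60967 bp (the 95.6th percentile). Kcnh2, which encodes the cardiac channel affected in human long QT syndrome, had 3 regions in its 32096 bp and 2 beside it, and the best of these, at 21.7-fold and 18.8-fold, lay beside the gene. In the same family, Kcnh7 and Kcnh8 had 2 regions each in 490878 and 376486 bp, the 0.726th and 1.06th percentiles for their length. Kcnd2, whose product carries the fast transient current of neurons, had 5 in 514460 bp. Its lists differed, with 12 peaks in replicate 1 and 25 in replicate 2. Other genes with regions were Kcnq3 (6), Kcng2 and Kcnh5 (4 each), Kcnh3 and Kcng1 (3 each), Kcng3, Kcnf1 and Kcnh6 (2 each) and Kcns1 (1). Kcnh6 had 34.1-fold and 42.6-fold. Kcna4, the longest voltage-gated member without a region (36216 bp), had 1 unpartnered peak in each list, 7.35-fold and 6.56-fold.

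Of the 16 auxiliary and other genes, 13 had a region (81.2%, interval 54.4 to 96.0%), against 79.6% of other genes at their lengths. Partners of Kcnd channels had 20 regions at Kcnip4, 18 at Kcnip1, 5 at Kcnip3 and 1 at Kcnip2. The beta subunit genes Kcnab1, Kcnab2 and Kcnab3 had 10, 9 and 2. Among the beta subunits of the Kcnma1 channel, Kcnmb2 had 12 regions (best 78.2-fold and 35.8-fold), Kcnmb4 had 6 and Kcnmb3 had 1. Kcnmb1, the smooth muscle form, had 2, the better at 18.4-fold and 55.6-fold, and both also lay inside Kcnip1. The single-span subunit genes Kcne1 and Kcne2 had 1 region each, outside the gene, and Kcne3, Kcne4 and the cytoplasmic regulator gene Kcnrg had none.

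The 16 members without a shared region spanned 3122 to 46742 bp, and 14 of them still had a peak in at least 1 list. Of these 14, 8 had peaks in replicate 2 alone, 2 in replicate 1 alone (Kcnj11 and Kcnv1) and 4 in both lists at different positions (Kcna2, Kcna4, Kcng4 and Kcnj9). Kcnj8 and Kcnj13, 2 of all 91 members, had no peak in either list. Of all 20574 other genes 12.2% had none, a share not weighted to the members' lengths. How many of the other genes without a shared region still had a peak was not counted. The strongest unpartnered peak was 30.1-fold in Kcng4 in replicate 1 (chromosome 8, 119634358 to 119634793), and replicate 2 had a peak of 7.41-fold 1310 bp beyond that gene. Kcnh4 and Kcnj11 missed the limit of 5 kb by the least, with shared regions 5010 and 5543 bp away. The silent subunit genes Kcns2, Kcnv1 and Kcnv2 had their nearest ones at least 16684 bp away.

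Genes that work with these channels were set beside them, and all 9 had a shared region (interval 66.4 to 100%), against 78.0% of other genes at their lengths. Dpp6 and Dpp10, whose products escort Kcnd channels to the membrane, had 37 and 25 regions within 5 kb of genes of 910144 and 1513678 bp, with best folds of 46.6 and 43.2 and of 68.7 and 55.6. With a reciprocal overlap of 50% Dpp6 kept 18, and single lists gave 62 and 78 peaks at Dpp6 and 46 and 63 at Dpp10. The best folds at genes of the gamma subunits of the Kcnma1 channel were 39.3-fold and 56.2-fold at Lrrc26, 57.1-fold and 59.5-fold at Lrrc52, 17.6-fold and 9.88-fold at Lrrc55 and 14.7-fold and 8.96-fold at Lrrc38. The best regions of Lrrc26, Lrrc52 and Lrrc55 lay beside the gene, and that of Lrrc38 lay inside it. Amigo1, whose product is a membrane protein, had 1 region of 13.2-fold and 6.79-fold, beside the gene. In other channel families, regions lay at 13 of 14 sodium channel genes, 25 of 25 calcium channel genes, 7 of 8 chloride channel genes and 4 of 4 HCN pacemaker genes. At their lengths 89.7%, 91.8%, 77.6% and 83.2% of other genes had one. The median density was 4.81 per 100 kb in the potassium channel genes, against 4.04 in sodium, 4.64 in calcium, 4.28 in chloride and 13.3 in HCN channel genes and 4.11 in other protein-coding genes. These medians were not weighted to gene length, with which density varies. In the longest decile the potassium channel genes were the sparser, with 2.61 against 3.48 in other genes.

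Regions were also placed by their distance to the nearer gene end, without allowing for how much sequence lies there. Of the 404 pairs of a region and a member, 18 (4.46%) had the region's centre within 1 kb of an end of the gene, against 9.61% of the pairs of other genes. In the longest decile of genes the shares were 1.98% and 2.22%. In the other deciles they were 8.61%, or 13 of 151 pairs, and 14.6%.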

How the data were processed

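Peak lists from a ChIRP-seq experiment with 6 samples (3 groups of 2 replicates) were analysed for 91 potassium channel genes. Per the submitters' processing notes, the build was mm10 and the tools included MACS2 2.1.1, Bowtie2 2.3.2 and Picard 2.9.2. Which libraries were treatment and control in each call is not given in the sources used here. Per the labels, 1 list name covers all 3 samples of a replicate, and the authors are taken to have pooled them. The fold enrichment is the authors' deposited ratio, and q was deposited as a −log10 value. Peak starts, ends and summits were deposited in bp. Genes came from a RefSeq table of GRCm38.p6. Length classes were deciles of gene length over all 20665 genes, and shares carry 95% exact (Clopper-Pearson) intervals, which cover counting error only. Whether replicates came from separate cultures is not stated.

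The members and lists were chosen with earlier results of these data known. Named genes were the muscle list, the 10 members with the highest places, the member with the most regions and the longest without one in each family, and the partner list. Most other members are named too, after their values were seen, and a few are counted in the totals but not reported here by name. No test was run on any list. Overlap counting was tested on simulated data against a brute-force count. Work was done in Python 3.11.15 with pandas 2.3.3, numpy 2.4.6, matplotlib 3.10.9 and scipy 1.17.1.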

Additional observations from a re-analysis of the deposited data

How the results depend on the processing

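The count of potassium channel genes with a shared region was within 1.5 times the main count of 75 under every alternative but one. Among the 10000 strongest peaks of each list it was 19, with 7 voltage-gated, 1 inward rectifier, 3 tandem-pore, 5 calcium- and sodium-activated and 3 auxiliary genes. There, 3 of the 14 genes on the muscle list and 5 of the 9 on the partner list had a region. Among other channel genes it was 2 of 14 sodium, 9 of 25 calcium, 0 of 8 chloride and 3 of 4 HCN genes. At this cut 14.0% of all other genes had a region, and the counts of these groups were not set against genes of their lengths. The other alternatives gave 57 (either gene end) to 87 members (peaks of replicate 2 alone). The share of other genes at the members' lengths was 20.2% for the strongest peaks, 77.2% at a fold of at least 5, 71.2% with a reciprocal overlap of 50% and 71.4%, 73.8% and 87.9% for the gene span alone, windows of 1 kb and of 10 kb. It was 61.5% at gene ends, and 88.2% to 91.1% when either replicate was left out. The members' share exceeded it by 1.04 percentage points in the main setting and by 0.68 to 4.50 in all others except the window of 10 kb, where it turned to -1.12. The median density of 4.81 per 100 kb became 0 for the strongest peaks, 2.74 with reciprocal overlap and 6.35 to 8.80 when either replicate was left out. Counts at single genes also moved. With a reciprocal overlap of 50%, Kcnj6 had 4 regions, Kcnk2 5, Kcnn2 and Kcnq5 7 each, Kcnk1 3, Kcng2 2, Abcc9 2, Lrrc26 and Lrrc38 1 each, and Amigo1 none. Kcnn2 had 9 at a fold of at least 5. Single lists hold peaks without a partner, and gave 40 and 41 at Kcnh1, 34 and 33 at Kcnma1 and 34 and 45 at Kcnip4. The cause was not tested. No paired analysis was possible because each list pools the groups of a replicate. Read depth is unknown, so what it limits could not be assessed.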

Other observations

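Kcn genes outside the rule held few regions. Kcnq1ot1, the imprinted non-coding RNA gene that runs within Kcnq1 (chromosome 7, 143213111 to 143296547), had 3 shared regions within 5 kb, with 26.9-fold in replicate 1 and 10.2-fold in replicate 2 at the best, which also counts for Kcnq1. Kcnmb4os1 shared the region of 19.5-fold and 16.8-fold at the end of Kcnmb4 away from its start. Kcnd3os and Kcnmb4os2 had none. The X-linked genes Kcnd1 and Kcne1l had no shared region, and Kcne1l had 1 peak, in replicate 2.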
